A study of Mus musculus with 10 samples.

Results

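Secondary (specific) and tertiary (gelatinase) granules are storage compartments that neutrophils fill as they mature, and 10 genes for proteins of these granules were examined in sorted mouse microglia. The genes were Ltf, Camp, Ngp, Lcn2, Mmp8, Mmp9, Cd177, Chil3, Pglyrp1 and Retnlg, 10 of the 49315 genes counted. All 10 were found by the symbol of their Ensembl identifier. They had been chosen with their CPM (counts scaled to the library total) in the 4 groups of libraries known, so their levels and fold changes are given as a description, without a test. The cells were microglia, the resident macrophages of the brain, sorted from wild-type (WT) C57BL/6 mice by surface CD11c, the integrin alpha X chain. Bulk RNA was sequenced from 3 CD11c+ and 3 CD11c- samples at postnatal day 5 (P5) and from 2 CD11c+ and 2 CD11c- samples at 9 months (9-mo). No treatment is labelled in any group, and nothing says whether replicates came from separate animals, so p-values cover only the spread among the samples at hand, possibly technical. The SMART-Seq v4 Ultra Low Input kit is named for the 9-month libraries and standard Illumina protocols for the rest, so age and library kit cannot be told apart.

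Neutrophils mature in the bone marrow and fill their granules in order. Promyelocytes make the enzymes of the primary (azurophil) granules, such as myeloperoxidase and elastase, myelocytes and metamyelocytes make the secondary granule proteins, and band cells make the gelatinase of the tertiary granules. In mice the transcription factor C/EBP epsilon is required for the secondary granules, and the healthy brain parenchyma holds few neutrophils.

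Of the 10 genes, 4 lie on chromosome 9. Camp (ENSMUSG00000038357, 109847379 to 109849617, minus strand), Ngp (ENSMUSG00000032484, 110419747 to 110423012, plus strand) and Ltf (ENSMUSG00000032496, 111019271 to 111042767, plus strand) follow each other there, at gaps of 570 kb and 596 kb in the coordinates of the deposited tables, and Mmp8 (ENSMUSG00000005800) lies far from them at 7558456 to 7568485. Lcn2 and Mmp9 are on chromosome 2, Cd177 and Pglyrp1 on chromosome 7, Chil3 on chromosome 3 and Retnlg on chromosome 16. Because C/EBP factors act on this gene programme, the 250 bases before the RefSeq start (GRCm38.p6) of the 9 members in the promoter table were searched on both strands for the C/EBP letters TTGCNNAA. They were present in 5 of the 9 windows, those of Ltf, Ngp, Lcn2, Mmp8 and Retnlg, and in 9.56% of all 32851 windows of that length. GAGGAA, a core of PU.1 sites, was present in 5 of the 9, those of Ltf, Lcn2, Mmp8, Cd177 and Pglyrp1, and in 23.3% of all windows. TATAAA was present in 1 of the 9, that of Cd177, and in 12.4% of all windows. No C/EBP match overlapped a PU.1 match. Shown here are 4 stretches with a C/EBP match and that of Pglyrp1, which had none and whose level at P5 differed in pattern from that of most members. Each runs 5′ to 3′ on the gene's strand and stops before the first deposited exon base met within the 250 bases, and capitals mark the C/EBP match. The Pglyrp1 stretch lies before its RefSeq start but inside the deposited span of the gene, which begins further upstream at 18871331.
Ltf (chr9:111019042-111019270, plus strand): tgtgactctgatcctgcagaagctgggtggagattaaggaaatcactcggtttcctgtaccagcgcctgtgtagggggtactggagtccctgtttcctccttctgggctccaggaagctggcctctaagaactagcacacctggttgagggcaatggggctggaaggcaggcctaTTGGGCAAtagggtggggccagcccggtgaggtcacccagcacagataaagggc
Ngp (chr9:110419558-110419746, plus strand): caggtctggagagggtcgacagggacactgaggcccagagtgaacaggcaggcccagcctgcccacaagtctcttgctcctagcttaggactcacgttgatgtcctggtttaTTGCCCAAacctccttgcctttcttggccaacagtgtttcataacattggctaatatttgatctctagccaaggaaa
Mmp8 (chr9:7558179-7558428, plus strand): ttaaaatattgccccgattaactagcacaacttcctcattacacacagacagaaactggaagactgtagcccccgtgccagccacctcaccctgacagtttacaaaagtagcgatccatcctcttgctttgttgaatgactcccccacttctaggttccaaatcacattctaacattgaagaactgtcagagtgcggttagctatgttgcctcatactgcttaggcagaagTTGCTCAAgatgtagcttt
Retnlg (chr16:48872358-48872607, plus strand): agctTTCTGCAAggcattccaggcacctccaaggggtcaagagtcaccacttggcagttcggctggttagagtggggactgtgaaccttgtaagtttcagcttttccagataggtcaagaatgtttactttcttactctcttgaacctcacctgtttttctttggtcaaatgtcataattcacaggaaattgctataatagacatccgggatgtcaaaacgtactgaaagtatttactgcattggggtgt
Pglyrp1 (chr7:18884440-18884679, plus strand): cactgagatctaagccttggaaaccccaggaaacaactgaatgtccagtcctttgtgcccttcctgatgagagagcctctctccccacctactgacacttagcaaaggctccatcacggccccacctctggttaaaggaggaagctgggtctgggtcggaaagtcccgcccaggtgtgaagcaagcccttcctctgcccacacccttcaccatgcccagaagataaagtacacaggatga
The match began 75 bases before the RefSeq start in Ltf, 138 in Ngp, 19 in Mmp8 and 246 in Retnlg. Ngp had another match 11 bases before the start, within an exon of the deposited tables, which is not printed. These matches describe letters and were not tested as binding sites.

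Library totals ran from 11892082 to 25483573 counts, except in P5 CD11c+ replicate 2, which had 2619610. That library also stood apart in profile, with Pearson correlations of 0.714 to 0.780 with the other P5 libraries across genes on log2(CPM + 1), where the others correlated at 0.942 to 0.992. Despite its few counts, 23033 genes reached 1 CPM in it, against 13284 to 14735 in the other P5 libraries. The 10 granule genes had 3 to 251 counts each in it. The labelled cell type was checked on 7 microglial markers (P2ry12, Tmem119, Sall1, Cx3cr1, Fcrls, Siglech and Gpr34). Together they took 0.664% to 1.003% of counts in P5 CD11c+, 0.631% to 1.203% in P5 CD11c-, 2.04% to 2.24% in 9-mo CD11c+ and 0.571% to 0.638% in 9-mo CD11c- libraries. At P5 the 7 markers did not move together. In P5 CD11c+ replicate 2, Cx3cr1 (7345 CPM) and Siglech (1272 CPM) were the highest of their group. The remaining markers were the lowest of their group there. Tmem119 was lower in every P5 CD11c+ than in every P5 CD11c- library (means of 93.9 and 352 CPM). The P5 mean of Cx3cr1 was higher in CD11c+ (3894 and 2822 CPM), with overlapping groups.

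The granule genes took the largest share of counts in the CD11c- libraries at 9 months. At P5 all 10 together accounted for 0.0203%, 0.0244% and 0.0210% of CD11c+ counts, in replicate order, and 0.0373%, 0.181% and 0.0988% of CD11c- counts. At 9 months they accounted for 0.167% and 0.103% of CD11c+ counts and 9.32% and 11.0% of CD11c- counts. No CD11c+ library reached a CD11c- library of its age, and the P5 CD11c- libraries differed among themselves by more than the CD11c+ ones. In the library with the fewest counts, P5 CD11c+ replicate 2, the Wilson 95% interval of the share was 0.0226% to 0.0264%, which covers counting error only. As a summed level, the members had 219 ± 22.2 CPM in P5 CD11c+ and 1057 ± 720 CPM in P5 CD11c- samples (SD, n = 3 each), and 1349 ± 453 CPM in 9-mo CD11c+ and 101648 ± 11921 CPM in 9-mo CD11c- samples (SD, n = 2 each). In bulk RNA, fewer cells of a type and less RNA per cell cannot be told apart.

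**Figure D1:**
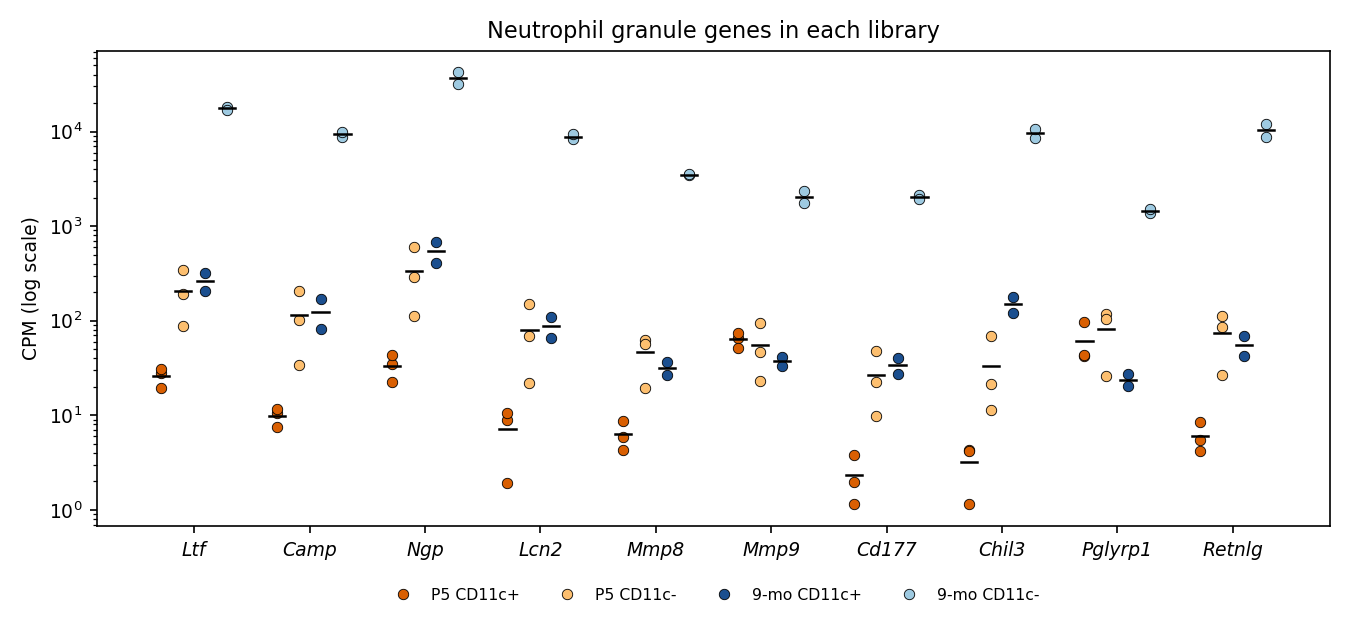
CPM of each of the 10 granule genes in each library, on a log axis, with P5 CD11c+, P5 CD11c-, 9-mo CD11c+ and 9-mo CD11c- libraries from left to right; points are libraries and bars are group means. At 9 months the CD11c- points of every member stand far above the CD11c+ points, and at P5 the groups of Mmp9 and Pglyrp1 overlap.

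Markers of other cells also differed between the groups. The 5 neutrophil markers S100a8, S100a9, Ly6g, Cxcr2 and Csf3r took 0.0272% to 0.0454% of counts in P5 CD11c+ and 0.0829% to 0.214% in P5 CD11c- libraries, and 0.132% to 0.168% in 9-mo CD11c+ and 5.54% to 9.09% in 9-mo CD11c- libraries. Csf3r was the highest of the 5 in every P5 CD11c+ library, with 341, 101 and 275 CPM. It had 465, 416 and 258 CPM in P5 CD11c- libraries, and its groups overlapped at both ages. None of the 5 was at 0 counts in any library, and Ly6g was the lowest at P5, with 0.132, 1.53 and 0.214 CPM in P5 CD11c+ and 1.82, 9.29 and 5.21 CPM in P5 CD11c- libraries. The 5 monocyte markers took 0.109% to 0.381% in P5 CD11c+ and 0.0177% to 0.0558% in P5 CD11c- libraries. That direction, opposite to the members, came from F13a1, with a mean of 1818 CPM in CD11c+ and 38.7 CPM in CD11c- libraries. The P5 means of Ly6c2 (5.17 and 42.9), Ccr2 (60.6 and 104), Plac8 (181 and 208) and Vcan (8.38 and 15.7) were lower in CD11c+. The P5 groups of Ly6c2 did not overlap, and those of Ccr2, Plac8 and Vcan did. At 9 months the 5 monocyte markers took 0.0416% to 0.0488% in CD11c+ and 0.238% to 0.269% in CD11c- libraries. The 5 eosinophil markers took 0.00149% to 0.00179% in P5 CD11c+ and 0.00203% to 0.00451% in P5 CD11c- libraries, and 0.00380% to 0.00415% in 9-mo CD11c+ and 0.114% to 0.122% in 9-mo CD11c- libraries. At P5 most of that sum was Siglecf, with means of 16.1 CPM in CD11c+ and 29.7 CPM in CD11c- libraries. At 9 months Siglecf was higher in CD11c+ (38.5 and 14.6 CPM), whereas Epx, Prg2, Prg3 and Ear6 were lower. At P5 the 5 markers of border-associated macrophages took 0.425% to 0.651% in CD11c+ and 0.0211% to 0.0389% in CD11c- libraries, and mitochondrial transcripts 0.791% to 2.80% in CD11c+ and 7.19% to 28.1% in CD11c- libraries. The part of these in the members' levels was not tested.

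Among the iron-related proteins of the secondary granules, Ltf encodes lactoferrin, which binds iron, and Lcn2 encodes the lipocalin that binds bacterial siderophores. Ltf had 27.8, 19.5 and 30.7 CPM in P5 CD11c+ and 87.3, 343 and 190.0 CPM in P5 CD11c- libraries. The 9-month values were 317 and 205.5 CPM in CD11c+ and 18084 and 17052 CPM in CD11c- libraries. The groups did not overlap at either age, and the log2 fold change of CD11c+ over CD11c-, fitted with edgeR, was -3.23 ± 0.59 at P5 and -6.45 ± 0.28 at 9 months (± SE here and below). Lcn2 had 8.89, 1.91 and 10.7 CPM in P5 CD11c+ and 22.1, 150.3 and 69.5 CPM in P5 CD11c- libraries. At 9 months it had 109 and 65.0 CPM in CD11c+ and 8243 and 9396 CPM in CD11c- libraries. Its lowest value was in the thin P5 CD11c+ replicate 2, the groups did not overlap at either age, and its fold changes were -3.66 ± 0.88 at P5 and -7.04 ± 0.34 at 9 months.

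Camp encodes the cathelicidin antimicrobial peptide precursor, and Ngp encodes a neutrophil granule protein of the same cystatin-like family. Camp had 7.51, 10.7 and 11.5 CPM in P5 CD11c+ and 33.8, 207 and 102 CPM in P5 CD11c- libraries. At 9 months it had 168 and 81.2 CPM in CD11c+ and 8654 and 9993 CPM in CD11c- libraries. Ngp, the member with the most counts in 9-mo libraries of both subsets, had 34.7, 22.5 and 43.6 CPM in P5 CD11c+ and 112, 606 and 289 CPM in P5 CD11c- libraries. At 9 months Ngp had 684 and 405 CPM in CD11c+ and 31743 and 42253 CPM in CD11c- libraries. Neither gene's groups overlapped at either age. The fold change of Camp was -3.79 ± 0.73 at P5 and -6.60 ± 0.42 at 9 months, and that of Ngp was -3.56 ± 0.71 at P5 and -6.47 ± 0.37 at 9 months.

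The matrix proteases divided at P5. Mmp8 encodes neutrophil collagenase, a secondary granule enzyme, and had 4.28, 8.78 and 5.83 CPM in P5 CD11c+ and 19.5, 62.6 and 56.5 CPM in P5 CD11c- libraries. Mmp9 encodes gelatinase B, the enzyme that names the tertiary granules and that macrophages also make, and had 66.3, 74.4 and 50.9 CPM in P5 CD11c+ and 23.3, 94.8 and 47.0 CPM in P5 CD11c- libraries. The Mmp8 groups did not overlap, with a fold change of -3.18 ± 0.60, whereas the Mmp9 groups did, with a fold change of -0.03 ± 0.54. The sign of the Mmp9 value was not stable, since it was 0.59 without P5 CD11c- replicate 2, -0.48 without P5 CD11c- replicate 1 and -0.13 without P5 CD11c+ replicate 2. At 9 months Mmp8 had 36.7 and 26.9 CPM in CD11c+ and 3439 and 3566 CPM in CD11c- libraries. Mmp9 then had 41.6 and 33.6 CPM in CD11c+ and 2353 and 1745 CPM in CD11c- libraries. The 9-month groups of both were far apart, with fold changes of -7.16 ± 0.25 for Mmp8 and -6.13 ± 0.22 for Mmp9.

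Cd177 encodes a neutrophil surface glycoprotein that is also stored in secondary granules, and Pglyrp1 encodes a secreted protein that binds bacterial peptidoglycan. Cd177 had the lowest mean CPM of the members in both P5 groups, with 1.98, 1.15 and 3.85 CPM in CD11c+ and 9.90, 48.2 and 22.6 CPM in CD11c- libraries. Pglyrp1 had 42.8, 95.8 and 43.0 CPM in P5 CD11c+ and 26.3, 117 and 104 CPM in P5 CD11c- libraries. The Cd177 groups did not overlap at P5, with a fold change of -3.68 ± 0.76, and the Pglyrp1 groups did, with a fold change of -0.72 ± 0.66. The Pglyrp1 value was -1.19 without P5 CD11c+ replicate 2, the library with its highest CD11c+ level. At 9 months Cd177 had 40.2 and 27.1 CPM in CD11c+ and 2123 and 1953 CPM in CD11c- libraries. Pglyrp1 then had 27.3 and 20.3 CPM in CD11c+ and 1361 and 1513 CPM in CD11c- libraries. Neither gene's groups overlapped at 9 months, and the fold changes were -6.29 ± 0.26 for Cd177 and -6.30 ± 0.25 for Pglyrp1.

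Chil3 encodes the chitinase-like lectin Ym1, which macrophages can also make, and Retnlg encodes the secreted resistin-like gamma. Chil3 had 4.35, 1.15 and 4.17 CPM in P5 CD11c+ and 11.5, 68.2 and 21.2 CPM in P5 CD11c- libraries. The 9-month values were 176 and 122 CPM in CD11c+ and 8524 and 10566 CPM in CD11c- libraries. Its groups did not overlap at either age, and its fold changes were -3.52 ± 0.82 at P5 and -6.39 ± 0.30 at 9 months. Retnlg had 4.15, 8.40 and 5.45 CPM in P5 CD11c+ and 26.9, 111 and 86.6 CPM in P5 CD11c- libraries. At 9 months it had 68.5 and 41.9 CPM in CD11c+ and 8695 and 12041 CPM in CD11c- libraries. Retnlg had the most negative fold change of the 10 at both ages, with -3.96 ± 0.67 at P5 and -7.94 ± 0.40 at 9 months, and no overlap between groups. Reads of near copies could be shared. Chil4, the close copy of Chil3, had 39 and 11 counts in 9-mo CD11c+ and 1538 and 884 counts in 9-mo CD11c- libraries. Retnla, of the same family as Retnlg, had 56, 67 and 157 counts in P5 CD11c+ and 0, 6 and 7 counts in P5 CD11c- libraries. Retnlg itself had 63, 22 and 102 counts in P5 CD11c+ and 399, 1507 and 1030 counts in P5 CD11c- libraries. Sharing of reads was not tested.

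At P5, 8 of the 10 members had every CD11c+ library below every CD11c- library, a pattern that 3.64% of the 15410 genes tested showed. At 9 months all 10 did, beside 23.7% of the 15740 genes tested, while 49.4% had every CD11c+ library above every CD11c- library. These contrasts are among those the members were chosen on, so nothing is read from the counts. All 10 passed the filter on low counts at both ages. Their median log2 fold change was -3.54 at P5, where the median over all genes tested was 0.06, and -6.46 at 9 months, where it was 0.02. The P5 median was -3.30 without CD11c+ replicate 2, and it was -2.83 without CD11c- replicate 2, which had the highest P5 level of every member. Scaling to the microglial markers moved the median of all genes to 0.36 at P5 and -1.42 at 9 months, and that of the members to -3.36 at P5 and -7.93 at 9 months.

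Expressed as a share of the CD11c- mean, the CD11c+ mean of a member at P5 ran from 8.01% for Retnlg to 116% for Mmp9, with a median of 9.80% and 73.3% for Pglyrp1. At 9 months it ran from 0.532% for Retnlg to 1.83% for Mmp9, with a median of 1.48%. The span across members was thus narrower at 9 months, where Mmp9 and Pglyrp1 no longer stood apart. The difference between ages of the fold change, 9 months minus P5, was -5.89 for Mmp9 and -5.33 for Pglyrp1, and ran from -3.81 for Retnlg to -2.51 for Cd177 in the other 8.

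**Figure D2:**
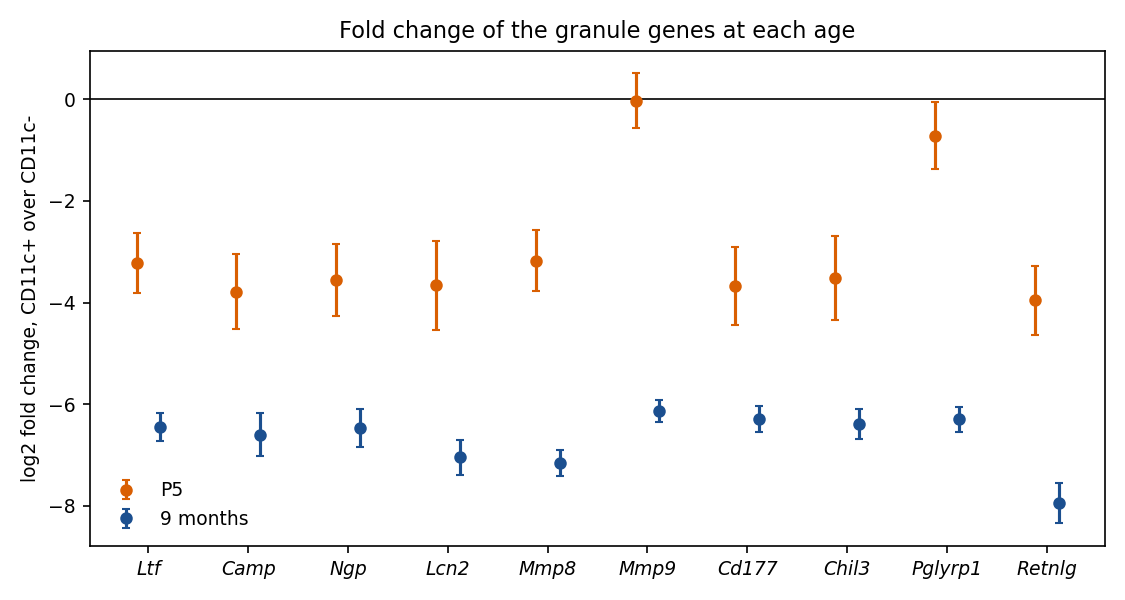
Log2 fold change of CD11c+ over CD11c- for each granule gene at P5 and at 9 months, with bars of 1 SE from the edgeR fit. All 9-month values lie between -7.94 and -6.13, and at P5 Mmp9 (-0.03) and Pglyrp1 (-0.72) stand apart from the other 8, which lie between -3.96 and -3.18.

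Levels were compared between genes per length, in FPKM (here CPM divided by the deposited gene length in kilobases). In P5 CD11c+ libraries the highest levels were those of Pglyrp1 (33.0 ± 16.6 FPKM), Ngp (27.5 ± 8.65 FPKM) and Mmp9 (18.1 ± 3.38 FPKM, SD, n = 3). In P5 CD11c- libraries Ngp (274.6 ± 204.7 FPKM) and Camp (151 ± 115 FPKM, SD, n = 3) led, and Mmp9 was the ninth of the 10. Within single libraries, 3 of the 9 pairs of neighbours kept this order in all 3 P5 CD11c+ libraries (Camp above Retnlg, Ltf above Lcn2 and Chil3 above Cd177). In P5 CD11c- libraries 5 of 9 did, among them Ngp above Camp and Retnlg above Ltf. The order of the other neighbours, Pglyrp1 and Ngp in P5 CD11c+ included, changed between libraries.

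At 9 months Ngp led in both subsets, with 446 ± 162 FPKM in CD11c+ and 30276.5 ± 6082 FPKM in CD11c- libraries (SD, n = 2 each). Mmp9 was lowest in both, with 10.6 ± 1.60 FPKM in CD11c+ and 579 ± 122 FPKM in CD11c- libraries. Retnlg was the fourth in CD11c+ libraries, at 90.8 ± 30.9 FPKM, below Camp and above Ltf in both libraries, while its order with Chil3 changed. It was the second in CD11c- libraries, at 17052 ± 3892 FPKM, below Ngp and above Camp in both. Of the 9 pairs of neighbours, 8 kept their order in both 9-mo CD11c+ libraries and 7 in both 9-mo CD11c- libraries.

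The make-up of the granule transcripts is described per library. Of the summed FPKM of the 10 genes, Mmp9 made up 18.1%, 16.1% and 12.3% in P5 CD11c+ and 2.59%, 2.09% and 1.87% in P5 CD11c- libraries. Pglyrp1 made up 22.5%, 39.9% and 20.01% in P5 CD11c+ and 5.65%, 4.96% and 8.001% in P5 CD11c- libraries. For both genes the share in every P5 CD11c+ library was above that in every P5 CD11c- library. The other members were much lower in P5 CD11c+, so these shares follow from the fold changes above. They do not show higher levels of Mmp9 or Pglyrp1 in CD11c+, where the CPM overlapped between groups. At 9 months Mmp9 made up 0.986% and 1.34% in CD11c+ and 0.966% and 0.573% in CD11c- libraries, and Pglyrp1 1.25% and 1.56% in CD11c+ and 1.08% and 0.957% in CD11c- libraries. Retnlg made up 9.45% and 9.73% in 9-mo CD11c+ and 20.8% and 23.0% in 9-mo CD11c- libraries, and Chil3 9.06% and 10.6% in 9-mo CD11c+ and 7.58% and 7.52% in 9-mo CD11c- libraries. Ngp held 14.1% to 47.0% over the 10 libraries and was lowest in P5 CD11c+ replicate 2.

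**Figure D3:**
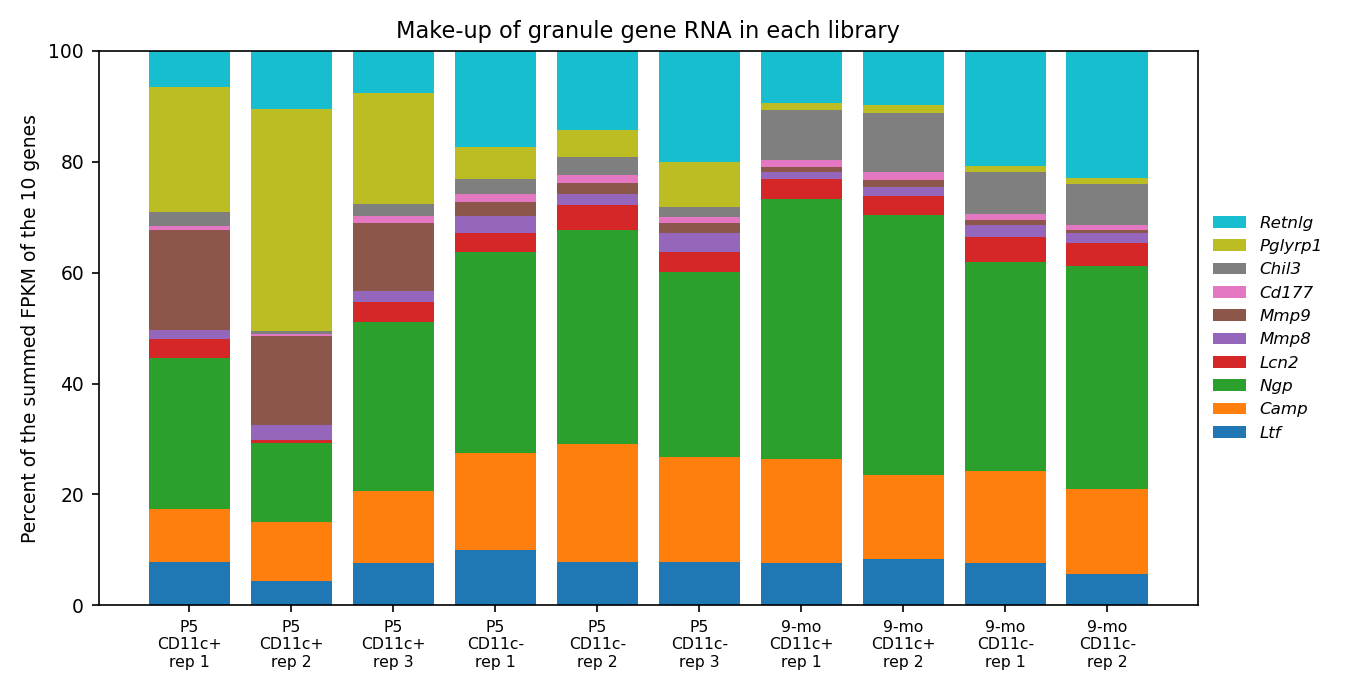
Share of each granule gene in the summed FPKM of the 10 genes, in percent, as one stacked bar per library, with CD11c+ libraries left of CD11c- libraries within each age. Mmp9 and Pglyrp1 are widest in the P5 CD11c+ bars, where Mmp9 holds 12.3% to 18.1% and Pglyrp1 20.01% to 39.9%.

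Across the 10 genes, the profile on log2(FPKM + 0.01) of 9-mo CD11c+ libraries correlated with that of 9-mo CD11c- libraries at Pearson r of 0.955 to 0.969. P5 CD11c+ libraries correlated with P5 CD11c- libraries at 0.518 to 0.752, and with 9-mo CD11c- libraries at 0.136 to 0.365. P5 CD11c- libraries correlated with 9-mo CD11c- libraries at 0.775 to 0.880. These values describe 10 genes within pairs of libraries, which share a kit within an age.

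The primary granule genes, made earlier in maturation, are set here against the members, as a description. The summed CPM of Mpo, Elane, Prtn3, Ctsg, Ms4a3 and Prss57 amounted to 0.422%, 0.938% and 0.535% of that of the 10 members in P5 CD11c+ and 3.13%, 6.17% and 1.86% in P5 CD11c- libraries. At 9 months it amounted to 0.903% and 0.478% in CD11c+ and 2.61% and 1.79% in CD11c- libraries. The P5 CD11c+ values rest on 13, 6 and 21 primary granule counts. These shares did not overlap between groups, but at P5 that depended on Mmp9 and Pglyrp1 being in the sum. Against the other 8 members the shares were 0.914%, 3.09% and 0.970% in P5 CD11c+ and 3.61%, 6.99% and 2.20% in P5 CD11c- libraries, which overlapped. At 9 months they were 0.942% and 0.504% in CD11c+ and 2.72% and 1.85% in CD11c- libraries, which did not. Elane (neutrophil elastase) had 0 counts over the P5 CD11c+ libraries and 297 over the P5 CD11c- libraries (22, 254 and 21). With the CD11c+ group set to a floor of 3 counts in sum, its pooled CPM was at least 89.7-fold higher in CD11c-. That bound covers pooled counts only and rests mostly on P5 CD11c- replicate 2. Ctsg (cathepsin G) had 1 count in P5 CD11c+ and 91 in P5 CD11c- libraries, a ratio of 82.4 for CD11c- over CD11c+ with a counting interval of 14.4 to 3292.

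Other neutrophil genes were tested with edgeR's quasi-likelihood test and Benjamini-Hochberg adjustment over all genes. These lists, too, were chosen with earlier results of these data known. Their calls and p-values, here and below, are therefore no independent support. At P5, 0 of the 15410 genes were called lower in CD11c+ (0%) and 46 higher (0.299%), although 409 lower and 668 higher genes had an unadjusted p under 0.05, and DESeq2 called 149 lower and 364 higher. No gene of the neutrophil lists passed in edgeR. The median fold change was -1.71 in 10 other granule and surface genes, -5.86 in the 4 tested of 6 primary granule genes (also with Elane at its bound), -1.66 in 13 cytosolic and surface genes and 0.28 in 8 transcription factors of granulopoiesis. Without P5 CD11c+ replicate 2, edgeR called 1 of 10, 3 of 5 tested, 7 of 13 and 1 of 8 of these lists lower, beside 4.42% of all 15841 genes tested. DESeq2 on all 6 libraries called 2 of 10, 3 of 6, 6 of 13 and 1 of 8 lower, beside 0.813% of all genes with an adjusted p.

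S100a8 and S100a9, which encode the calprotectin subunits of the neutrophil cytosol, were among the genes that passed without that library. S100a8 had 42.9, 61.5 and 39.5 CPM in P5 CD11c+ and 140.4, 639 and 359 CPM in P5 CD11c- libraries. Its fold change was -3.24 ± 0.64 (edgeR adjusted p = 0.147), and -3.44 without P5 CD11c+ replicate 2 (edgeR adjusted p = 0.0276). Cebpe, which encodes C/EBP epsilon, had 0.922, 1.15 and 1.12 CPM in P5 CD11c+ and 3.03, 7.59 and 5.55 CPM in P5 CD11c- libraries, which did not overlap. Its fold change was -2.58 ± 0.67 (edgeR adjusted p = 0.290), and -2.59 without that library (edgeR adjusted p = 0.0323). Fpr1, a formyl peptide receptor shared with macrophages, had 29.0, 11.8 and 16.4 CPM in P5 CD11c+ and 2.63, 15.9 and 16.0 CPM in P5 CD11c- libraries, which overlapped.

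At 9 months edgeR called 2869 genes lower (18.2%) and 2333 higher (14.8%) in CD11c+ of 15740 tested. Of the other granule and surface genes 9 of 10 were called lower and 1 higher in CD11c+, with a median fold change of -5.84. All 6 primary granule genes were called lower, with a median of -7.83, as were 12 of 13 cytosolic and surface genes, with a median of -6.11. Of the transcription factors 6 of 8 were called lower, with a median of -2.86, and Cebpa and Runx1 did not pass. In a fit of all 10 libraries together 3 of the 8 factors were called lower, beside 4.49% of all genes.

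The genes called lower in CD11c+ at 9 months included surface, primary granule and transcription factor genes, and the maturation stage of cells was not tested. Ly6g, a surface marker of mouse neutrophils, had 6.20 and 3.76 CPM in CD11c+ and 530 and 656 CPM in CD11c- libraries. Its fold change was -7.28 ± 0.34 (edgeR adjusted p = 3.62e-05). Prtn3, which encodes proteinase 3 of the primary granules, had 1.92 and 1.15 CPM in CD11c+ and 223 and 172 CPM in CD11c- libraries, with a fold change of -7.36 ± 0.29 (edgeR adjusted p = 2.73e-05). Cebpe had 0.903 and 0.598 CPM in CD11c+ and 73.2 and 43.7 CPM in CD11c- libraries, with a fold change of -6.62 ± 0.35 (edgeR adjusted p = 4.96e-05). Cebpb (-1.94 ± 0.42, edgeR adjusted p = 0.0134), Gfi1 (-5.62 ± 0.88, edgeR adjusted p = 0.00370) and Spi1 (-1.09 ± 0.23, edgeR adjusted p = 0.0131) also passed, and all 3 lost the call in the fit of all 10 libraries. Spi1 also lost it without 9-mo CD11c- replicate 1 (-0.91, edgeR adjusted p = 0.0557) and with scaling to library totals (-0.72, edgeR adjusted p = 0.0693). The Gfi1 value rests on 3 counts in CD11c+ and 115 in CD11c- libraries, a ratio of 40.5 for CD11c- over CD11c+ with a counting interval of 13.5 to 199.3.

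Outside the transcription factors, 2 genes of these lists were not called lower in CD11c+ at 9 months. Csf3r, the receptor for granulocyte colony-stimulating factor, had 853 and 765 CPM in 9-mo CD11c+ and 864 and 704 CPM in 9-mo CD11c- libraries, which overlapped (fold change -0.33 ± 0.14, edgeR adjusted p = 0.131). Slc11a1, a metal ion transporter of phagosomes, was the gene called higher in CD11c+. It had 534 and 508 CPM in CD11c+ and 234 and 181 CPM in CD11c- libraries (fold change 0.96 ± 0.15, edgeR adjusted p = 0.00338). It lost the call in the fit of all 10 libraries, and its sign turned when libraries were scaled to the microglial markers (-0.49).

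**Figure D4:**
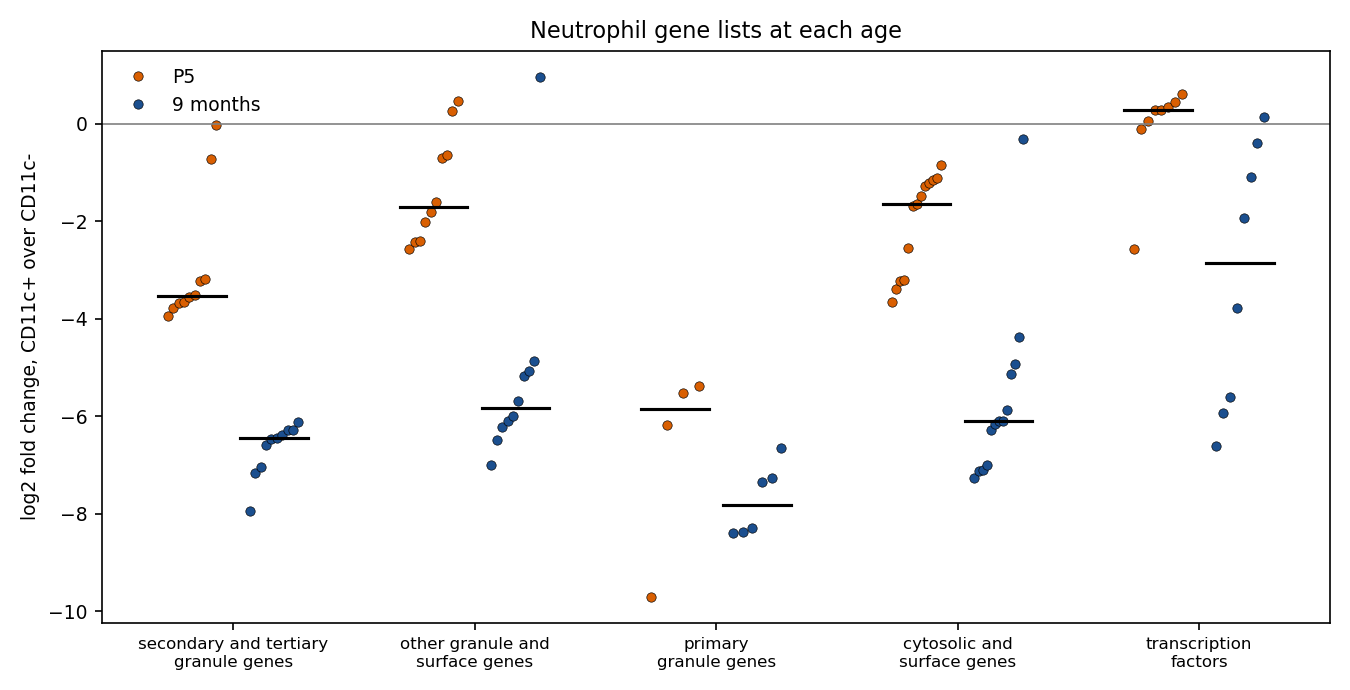
Log2 fold change of CD11c+ over CD11c- for the 10 members and 4 other lists of neutrophil genes at P5 and at 9 months; points are genes and lines are list medians. The 9-month medians are -6.46 for the members, -5.84, -7.83 and -6.11 for the other granule, primary granule and cytosolic lists and -2.86 for the transcription factors; the P5 point of Elane is a fitted value against 0 counts that depends on the prior count and is no bound.

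Over the 10 libraries, the genes most alike in pattern to the members were ranked by the Pearson correlation of log2(CPM + 1) with the members' mean, among 10385 genes. The 6 with the highest value were Fcnb (0.996), which encodes a ficolin, S100a8 (0.996), the chitinase-like Chil1 (0.995), Ly6c2 (0.992), S100a9 (0.991) and Ly6g (0.991). Among the members, Ltf correlated with the mean of the other 9 at 0.997, whereas Mmp9 (0.877) and Pglyrp1 (0.844) had the lowest values. These libraries share groups, kits and depth, so the values are descriptions.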

How the data were processed

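The tables the authors deposited hold whole-number counts, not normalized, with coordinates and lengths for 49315 genes in each of 10 libraries. Per the submitters' processing notes, Trimmomatic 0.36, STAR 2.5.2b and Subread 1.5.2 were used. The genome build, strand setting and treatment of multiply mapped reads are not given in the sources used here, so overlapping genes, and near copies such as Chil3 and Chil4, cannot be fully told apart. Of the 49056 identifiers shared with GENCODE M21 (GRCm38), from which symbols were taken, 91.4% had the same start and end. CPM and FPKM were computed here from the counts.

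Each age was fitted alone with edgeR 4.0.16 (R 4.3.3), with filterByExpr, TMM scaling, the quasi-likelihood F-test and Benjamini-Hochberg adjustment over all genes (threshold 0.05). The difference between ages was an interaction term over all 10 libraries. The procedure was tested on simulated data with 50 genes changed at each size. Genes at low levels were not among those changed. All simulated libraries shared 1 profile apart from the changes. Recovery of genes with few counts, or beside a library as unlike the others as P5 CD11c+ replicate 2, was thus not simulated. Of 2-, 4- and 32-fold changes it recovered 2%, 46% and 96% at P5 and 38%, 94% and 100% at 9 months. For the difference between ages it recovered 0%, 16% and 94%, so small changes could be missed there and at P5. Alternatives were DESeq2 1.42.0, other scalings, no filter, a replicate block, a joint fit and leaving out each library. Replicates differed by 25.3 to 209.9 in chi-square per degree of freedom, so none was a duplicate.

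The members, the gene lists and the tests were chosen with earlier results of these data known. All members are named, and genes of the other lists beside their list's count. The most alike genes were the 6 with the highest correlation among genes with at least 10 CPM in 2 or more libraries. Promoter sequences and starts are from RefSeq (GRCm38.p6), where 9 of the 10 members matched, and Mmp9 is named only. A microglial marker gene of the initial list is not reported here and is left out of the marker sums and scaling. Counting intervals have a level of 95% and cover counting error only.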

Additional observations from a re-analysis of the deposited data

Results flagged for a closer look

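The fold change of CD11c+ over CD11c- differed between 9 months and P5 in 10 of the 37 genes of the other neutrophil lists. The test was edgeR's interaction test, adjusted over 19555 genes. S100a8, S100a9 and Ly6g were among the genes that did not pass. In that test 305 genes (1.56%) were lower and 59 (0.302%) higher. All 10 listed differences, 9 months minus P5, were negative, and age and library kit cannot be told apart in them.

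Among granule and surface genes the differences were -4.23 ± 0.83 for Hp (haptoglobin, adjusted p = 0.0357), -3.98 ± 0.64 for Adam8 (adjusted p = 0.0210), -6.03 ± 1.09 for Fpr1 (adjusted p = 0.0267), -5.32 ± 0.97 for Fpr2 (adjusted p = 0.0277) and -4.03 ± 0.86 for Anxa1 (annexin A1, adjusted p = 0.0484). Among cytosolic and surface genes they were -4.85 ± 0.53 for Cxcr2 (a chemokine receptor, adjusted p = 0.0130) and -3.11 ± 0.64 for Mxd1 (adjusted p = 0.0441). Among transcription factors they were -3.87 ± 0.66 for Cebpe (adjusted p = 0.0230), -3.86 ± 0.81 for Cebpd (adjusted p = 0.0471) and -6.11 ± 1.07 for Myb (adjusted p = 0.0254). None of the 6 primary granule genes passed. All 10 lost the call in the replicate block, without P5 CD11c- replicate 3 and without each 9-month library in turn, and 10 of 10 kept it without P5 CD11c+ replicate 2. Without each of the other P5 libraries in turn, 3 to 8 of the 10 lost it.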

How the results depend on the processing

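At P5 edgeR called 46 genes. DESeq2 called 513, scaling to library totals 75, scaling to the microglial markers 20 (all higher), the joint fit of 10 libraries 138 and the replicate block 0. Leaving out 1 library gave 0 to 1501, with 1501 (801 higher, 700 lower) without P5 CD11c+ replicate 2 and 0 without any other. At 9 months edgeR called 5202 genes, scaling to the microglial markers 10160 (65 higher, 10095 lower) and the joint fit 1158 (280 higher, 878 lower). Scaling to library totals gave 4005 higher and 2062 lower, against 2333 higher and 2869 lower, and leaving out 1 library gave 4006 to 6087, the lone sample of a subset being assumed to vary like the others. For the difference between ages edgeR called 364 genes, DESeq2 2440, RLE size factors 623, microglial marker scaling 4860 (1 higher, 4859 lower), no filter 693 and the replicate block 0. Leaving out 1 library gave 0 to 3496, with 3496 without P5 CD11c+ replicate 2 and 0 without P5 CD11c- replicate 3 or any 9-month library. Whether the replicate numbers pair the samples could not be decided. Deviations of same-numbered samples from their group means correlated at 0.427, 0.0733 and -0.384 at P5 and at 0.13 at 9 months. Differently numbered samples at P5 correlated at -0.477 to 0.449. Centring on group means ties these values to each other, and with 2 libraries per subset the 9-month values can differ only in sign. The block moved the 9-month count to 5436.

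Signs turned for genes that had not passed: Fpr1 at P5 (-0.013 without CD11c+ replicate 1, -0.040 without CD11c- replicate 1; -0.040 to 0.85 over the libraries left out), and at 9 months Csf3r (0.044 with library totals), Cebpa (0.26 without CD11c- replicate 2; -0.84 to 0.26 over the libraries left out) and Runx1 (-1.31 with microglial marker scaling, -0.041 without CD11c+ replicate 2, -0.039 without CD11c- replicate 2; -0.041 to 0.42 over the libraries left out). Slc11a1, which had passed at 9 months, turned with microglial marker scaling (-0.49). The cause was not tested. Taking each member under each alternative, its fold change moved by less than the SD between replicates in 126 of 130 values at P5 and 100 of 110 at 9 months. That SD was averaged over the groups of both ages, so the spread at P5 entered the 9-month count. Leaving out 1 library moves a group mean by less than the group's own SD. For those fits the count therefore says little about stability. At P5 the 2619610 counts of CD11c+ replicate 2 limit the precision of members with few counts. Its differing profile may also shift their levels, which was not tested.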
